A study of Aethionema arabicum with 12 samples.

Results

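The light response of imbibed seeds was compared between 2 accessions of Aethionema arabicum, an annual crucifer. The accessions were TUR, from Turkey and named ES1020 in the labels, and CYP, from Cyprus. For each gene the CYP response (CYP light over CYP dark) was set against the TUR response (TUR light over TUR dark), and the log2 difference between them is given below as CYP minus TUR. Imbibition lasted 23 h, either dark or lit with 100 µmol m-2 s-1 of white light, and whole seeds that had not germinated were frozen. The 4 groups, TUR dark, TUR light, CYP dark and CYP light, held 3 libraries each, and all 12 libraries of the series entered the fit. Of 23594 gene models, the 15671 that had at least 1 CPM (counts scaled to equal library totals) in at least 3 libraries were tested. Levels are given as CPM scaled by the TMM method, in the order of replicates 1, 2 and 3. Gene names and roles come from the Arabidopsis thaliana gene that the deposited table matches to each model. The labels do not say whether replicates came from separate harvests or imbibitions, so p-values measure the spread between these libraries, which may be technical.

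In many seeds phytochrome turns a light signal into more active gibberellin and less abscisic acid, and germination follows once the embryo's walls extend and the covering layers weaken. Abscisic acid holds a seed in its dry-seed programme, marked by late embryogenesis abundant (LEA) proteins that protect cells from drying. In A. arabicum, white light is known to block germination in the CYP accession while TUR seeds germinate in it.

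Libraries held 7099578 to 13953792 counts, and 3 counts corresponded to 0.215 to 0.423 CPM. CYP dark replicate 3, the shallowest library, stood apart from the other CYP dark libraries, with a correlation of log2 CPM of 0.984 and 0.985 against them and of 0.994 between those other replicates. No pair of replicates agreed within sampling noise. Raw counts carry no correction for the genome each accession was aligned to. The labels list TAIR10, the Arabidopsis release, as genome build, and no source used here names an A. arabicum genome. The part of the genome used in the accession gaps was not tested.

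The light response differed between the accessions for 351 of the 15671 genes by edgeR's quasi-likelihood test of the difference at a Benjamini-Hochberg adjusted p under 0.05. The CYP response was lower than the TUR response for 287 genes (1.83% of those tested) and higher for 64 (0.408%). At an unadjusted p under 0.05 there were 2132. A difference of at least 2-fold was called lower for 156 genes and higher for 18, and the median difference over all genes tested was -0.03. Light responses within each accession were far more numerous. In CYP 1661 genes rose (10.6%) and 2248 fell (14.3%), and in TUR 1437 rose (9.17%) and 1445 fell (9.22%). Rises and falls counted for gene lists below are to be read beside these shares.

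A call in CYP without a call in TUR was therefore not taken as a difference. Of the genes without a called difference, 1951 were called in CYP and not in TUR, and 1040 in TUR and not in CYP. A gene was counted to one accession alone only if its difference was called, its response was called in that accession, and its response was not called in the other.

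By that rule 140 genes fell in CYP alone (0.893% of those tested), 26 rose in CYP alone (0.166%), 21 fell in TUR alone (0.134%) and 29 rose in TUR alone (0.185%). A further 76 genes fell in both accessions and more in CYP. Among genes that rose in both, 29 rose more in TUR and 13 more in CYP. Another 13 genes rose in TUR and fell in CYP, 3 did the reverse, and 1 was called in neither accession. Among the 140 genes that fell in CYP alone the median log2 response was -1.10 in CYP and -0.08 in TUR. For 135 of them the TUR response lay within 1.5-fold of no change. The rule itself selects for a fall in CYP and a small response in TUR, so these values only describe the class.

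These counts depended on single libraries. The lower calls numbered 340 without CYP dark replicate 3, 196 without TUR dark replicate 1 and 194 without TUR light replicate 3, and between 129 (without CYP light replicate 1) and 181 without any of the other 9 libraries. Genes that fell in CYP alone numbered 136, 105 and 103 without those same 3 libraries, and between 58 (without CYP light replicate 1 or TUR light replicate 2) and 78 without any of the other 9. The higher calls numbered 112 without CYP dark replicate 3. They numbered 25, 34, 37, 40 and 42 without CYP light replicate 2, CYP light replicate 1, TUR dark replicate 3, TUR light replicate 2 and CYP light replicate 3, and 45 to 67 without any other library.

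**Figure D1:**
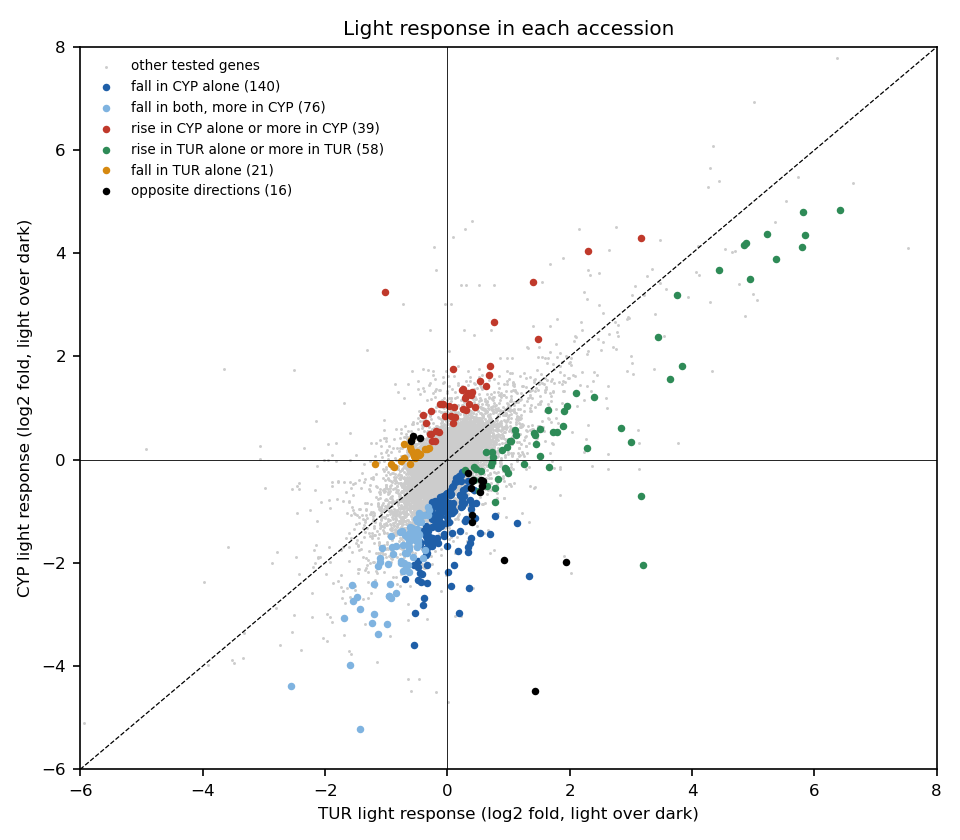
Light response of the 15671 tested genes, with the log2 fold of light over dark in TUR on the horizontal axis and in CYP on the vertical axis. Coloured points are called differences by class with their number, grey points are all other genes, and the dashed line marks equal responses; most coloured points lie below the line, 140 of them falling in CYP alone.

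Genes that build very-long-chain fatty acids for wax, a lipid of the plant's surface, included a pair, FDH and CER6, that rose in TUR and fell in CYP. Among 16 tested 3-ketoacyl-CoA synthases, which carry out the first step of fatty acid elongation, the light response was called lower in CYP for 3 (18.8%, against 1.83% of all genes) and higher for 0. At an unadjusted p under 0.05 the lower differences numbered 9, and by DESeq2 the calls numbered 5. Their median difference was -0.89, against -0.03 over all genes. In TUR 8 of the 16 rose in light and 0 fell, while in CYP 1 rose and 5 fell.

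FDH (AA32G01045, 3-ketoacyl-CoA synthase 10), which in Arabidopsis keeps the surfaces of young organs from fusing, had TUR dark values of 188, 179 and 168 CPM, TUR light values of 236, 268 and 206, CYP dark values of 153, 128 and 142 and CYP light values of 58.5, 58.99 and 64.6. Light raised it in TUR and lowered it in CYP with no overlap of light and dark libraries in either accession, and the log2 difference was -1.62 ± 0.15 (SE; adjusted p = 1.83e-05). Light and dark libraries were apart for 38.6% of all tested genes in CYP and 37.2% in TUR. They were apart in both accessions for all 13 genes that rose in TUR and fell in CYP. Lack of overlap, here and below, thus describes called genes and adds no support to a call. CER6 (AA39G00688, 3-ketoacyl-CoA synthase 6), the main elongating enzyme for stem wax in Arabidopsis, had TUR dark values of 12.7, 12.3 and 8.76 CPM, TUR light values of 21.7, 28.4 and 14.96, CYP dark values of 2.996, 3.11 and 4.86 and CYP light values of 0.398, 0.942 and 1.39. It too rose in TUR and fell in CYP, again without overlap, with a difference of -2.87 ± 0.47 (SE; adjusted p = 0.00218). 3-Ketoacyl-CoA synthase 9 (AA123G00020) had TUR dark values of 11.8, 11.1 and 11.6 CPM, TUR light values of 14.1, 15.1 and 11.03, CYP dark values of 12.98, 12.4 and 10.6 and CYP light values of 5.01, 3.77 and 5.12. It fell in CYP alone, its dark libraries did not separate the accessions, and the difference was -1.58 ± 0.22 (SE; adjusted p = 0.000681). All 3 calls were kept without any 1 library. A second model matched to CER6 (AA36G00032) had a difference of -0.04 (adjusted p = 0.976), and reads that fit both models may have been split between them.

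A wider list of cuticle genes was looked up after the called genes had been seen, so its count is a description. The list held 37 loci with known roles in cutin and wax, and 31 models matched to its loci were tested, some loci having more than 1 model. Of the 31 models, 10 had a difference called lower (32.3%, against 1.83% over all genes) and 0 higher. Of the 31, 9 rose in TUR and 0 fell, and 2 rose in CYP and 11 fell. The list holds FDH and both CER6 models given above. FDH and CER6 (AA39G00688) are counted again among its lower calls, its rises in TUR and its falls in CYP. The glycerol acyltransferase GPAT4 (AA1G00085), which makes cutin monomers, fell in CYP alone with a difference of -0.88 ± 0.20 (SE; adjusted p = 0.0251). The acyltransferase DCF (AA96G00127), which attaches ferulate to cutin, had a difference of -1.07 ± 0.19 (SE; adjusted p = 0.00498), and the acyl-CoA synthetase LACS2 (AA2G00078) one of -0.85 ± 0.21 (SE; adjusted p = 0.0418).

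The lipid-transfer protein LTPG2 (AA24G00010), which helps carry wax to the surface, had TUR dark values of 104, 106 and 95.7 CPM, TUR light values of 104, 109 and 108, CYP dark values of 88.3, 73.8 and 69.6 and CYP light values of 33.1, 41.01 and 39.5. The TUR libraries overlapped between light and dark, the CYP libraries did not, and the difference was -1.10 ± 0.15 (SE; adjusted p = 0.0005). The hydrolase BDG (AA53G01277) and the P450 enzyme CYP77A4 (AA12G00180) also fell in CYP alone, with differences of -2.13 and -0.86, and the first of these calls was lost without 6 of the 12 libraries in turn (adjusted p at most 0.0867).

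The alkane-forming pair of wax synthesis rose in TUR alone. CER1 (AA1G00145) had TUR dark values of 85.6, 89.3 and 78.3 CPM, TUR light values of 140.1, 162 and 120.5, CYP dark values of 38.5, 32.9 and 36.8 and CYP light values of 33.8, 39.4 and 39.7. It rose in TUR with no overlap and its CYP libraries overlapped, with a difference of -0.68 ± 0.16 (SE; adjusted p = 0.0346). Its partner CER3 (AA44G00609) rose in TUR alone as well, with a difference of -0.84 ± 0.19 (SE; adjusted p = 0.0262) and a log2 response of 0.44 in TUR and -0.39 in CYP.

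**Figure D2:**
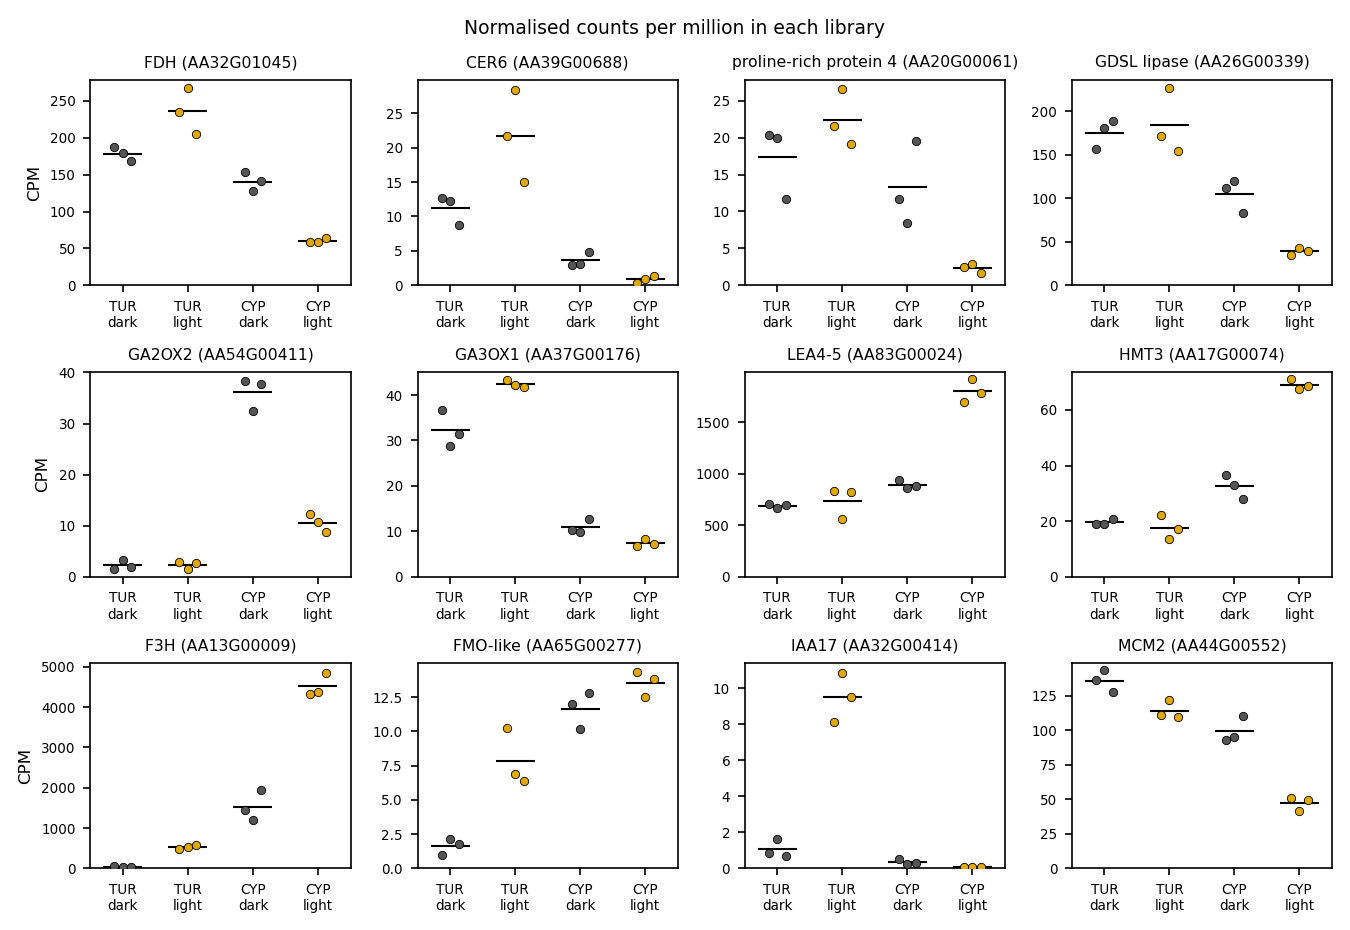
Normalised CPM of 12 genes in each library, with the 4 groups on the horizontal axis, 1 point per library and a line at each group mean; each vertical axis starts at 0. FDH and CER6 rise in TUR and fall in CYP, and LEA4-5 and HMT3 are higher in CYP light than in any other group.

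Among markers of the embryo's outer layer, 6 models were tested, and 3 had a difference called lower (50%, against 1.83% over all genes). They were FDH, CER6 and PDF1 (AA21G00071), a cell-wall protein of the outermost layer. PDF1 fell in both accessions, from 50.4 ± 14.6 (SD, n = 3) to 18.1 ± 0.865 CPM in TUR and from 57.8 ± 17.7 to 9.096 ± 0.4704 CPM in CYP, and its call was lost without 8 of the 12 libraries in turn (adjusted p at most 0.121). ATML1 (AA57G00375), the homeodomain factor that specifies this layer, had a difference of -0.10 (adjusted p = 0.817), and its close relative PDF2 (AA6G00252) one of -0.34 (adjusted p = 0.236).

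The summed level of the 6 epidermal markers, as CPM of the library total, was 322 to 371 CPM in TUR dark, 348 to 450.4 in TUR light, 282 to 311 in CYP dark and 167 to 178 in CYP light. The 4 endosperm markers summed to 270.2 to 282 CPM in TUR dark and 196 to 235 in TUR light, and to 348 to 354 in CYP dark and 252 to 280.2 in CYP light, with the endosperm regulator ZOU at 0 reads in every library. Seed coat markers, with TT12 at 2 and BAN at 34 reads over the 12 libraries, summed to 42.1 to 53.6 and 46.4 to 64.8 CPM in TUR dark and light, and to 25.4 to 36.8 and 41.4 to 45.5 CPM in CYP. The lower epidermal sum in CYP light lay in FDH, in CER6 and in PDF1, at 45.1 to 72.4 CPM in CYP dark and 8.38 to 9.29 in CYP light, whereas ATML1 ran from 57.2 to 66.2 in CYP dark and from 62.99 to 67.01 in CYP light. PDF2 was at 40.3 to 46.1 and 30.6 to 35.2 CPM. Most of the endosperm sum was MAN7 (AA8G00079), at 254 to 274 CPM in CYP dark and 176 to 204 in CYP light. Of the 3 endosperm and 4 seed coat markers tested, 0 had a called difference by edgeR, against 1 and 2 at an unadjusted p under 0.05 and 1 endosperm marker by DESeq2. Fewer cells of a type and less RNA per cell cannot be told apart in whole seeds, and the part of cell-type shares in the differences was not tested.

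**Figure D3:**
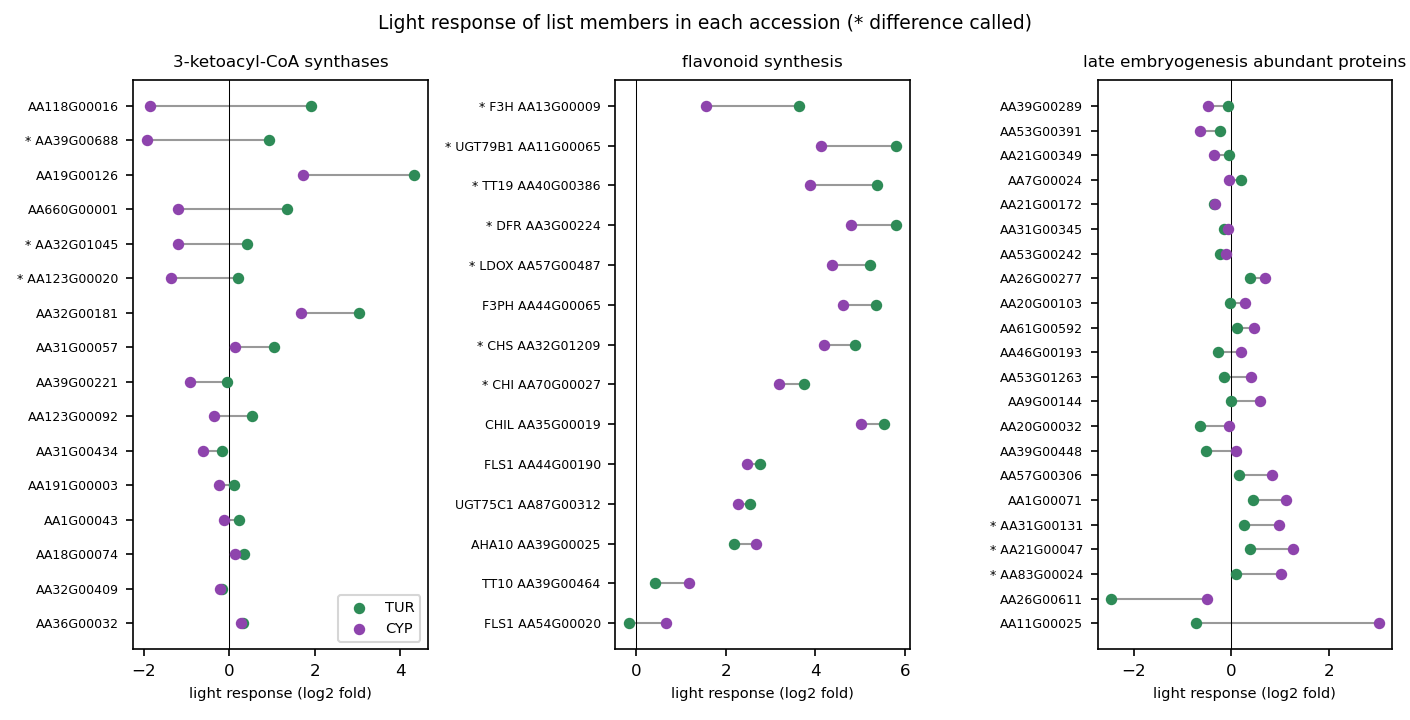
Light response (log2 fold, light over dark) of each tested member of 3 lists, with TUR in green and CYP in purple joined by a line and an asterisk at called differences. Among the 3-ketoacyl-CoA synthases and flavonoid genes the called members have TUR to the right of CYP, and among the called LEA genes CYP lies to the right of TUR.

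Genes for secreted proteins that build or remodel the cell wall were among those that fell in CYP. Of the genes that fell in CYP alone, with a described function and at least 5 CPM, the largest difference was that of proline-rich protein 4 (AA20G00061), a wall protein, with TUR dark values of 20.4, 19.99 and 11.7 CPM, TUR light values of 21.5, 26.6 and 19.1, CYP dark values of 11.7, 8.49 and 19.6 and CYP light values of 2.47, 2.91 and 1.61. Its CYP light libraries lay below every other library and its TUR light and dark libraries overlapped, and the difference was -2.85 ± 0.40 (SE; adjusted p = 0.000596). CYP dark replicate 3 had the highest CYP dark value, and the call was kept without it or any other library.

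GDSL lipases are secreted esterases, some of which act on cutin. Of 41 tested, 7 had a difference called lower (17.1%, against 1.83% over all genes) and 0 higher. Of these, 6 fell in CYP alone, as 0.893% of all genes did, and the list's median difference was -0.20. The 6 include AA15G00154 and AA15G00155, which match the same Arabidopsis gene, AT1G54010. AA26G00339 had TUR dark values of 156, 180.5 and 188 CPM, TUR light values of 172, 226 and 154, CYP dark values of 112, 120.3 and 82.7 and CYP light values of 34.9, 43.4 and 39.2. Light lowered it in CYP without overlap and left its TUR libraries overlapping, with a difference of -1.50 ± 0.21 (SE; adjusted p = 0.000596). AA6G00032 and AA96G00102 followed it, with differences of -1.17 and -1.10 and adjusted p-values of 0.000715 and 0.000734. The remaining called member, GDSL-motif lipase 4 (AA26G00146), rose in TUR alone, with 6.305, 6.695 and 8.45 CPM in TUR dark and 22.6, 19.2 and 25.9 in TUR light and a difference of -1.80 ± 0.28 (SE; adjusted p = 0.00121). The count was 6 to 8 with any 1 library left out.

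Expansins loosen walls during cell extension. Of 15 tested, 4 had a difference called lower (26.7%, against 1.83% over all genes) and 0 higher, and the median difference was -0.74. The count was 1 without any of TUR dark replicates 2 and 3, TUR light replicates 1 and 2, CYP dark replicate 1 and the 3 CYP light replicates, each left out alone. In TUR 7 of the 15 fell in light and in CYP 9 fell. Expansin A9 (AA19G00314) had TUR dark values of 177, 172 and 169 CPM, TUR light values of 103, 122 and 115, CYP dark values of 128, 138 and 154 and CYP light values of 47.8, 56.2 and 54.04. It fell in both accessions without overlap and further in CYP, with a difference of -0.80 ± 0.14 (SE; adjusted p = 0.00378) that was kept without any 1 library. The other 3, expansins A14 (AA25G00163), B3 (AA228G00009) and A15 (AA53G00740), had differences of -1.20, -1.29 and -0.73, and their calls were lost without 8, 10 and 11 of the 12 libraries in turn. Expansin A2 (AA35G00022), linked to germination in Arabidopsis, fell in both accessions and had a difference of -0.83 (adjusted p = 0.225).

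Glycosyl hydrolases listed by description, some of which trim wall sugars, had 10 of 78 tested members called lower (12.8%, against 1.83% over all genes) and 0 higher. Their median difference was -0.16. The count was 4 without CYP light replicate 3 and 6 without TUR light replicate 2. The models AA19G00337 and AA19G00338, both matched to the Arabidopsis beta-glucosidase gene AT3G09260, had differences of -2.25 ± 0.29 (SE; adjusted p = 0.000286) and -1.94 ± 0.28 (SE; adjusted p = 0.000783). Their description, glycosyl hydrolase superfamily protein, does not place them in the wall. AA19G00337 had TUR dark values of 68.8, 74.4 and 77.8 CPM, TUR light values of 34.5, 45.02 and 22.4, CYP dark values of 31.6, 29.9 and 37.5 and CYP light values of 2.79, 2.74 and 3.803. CYP light libraries were far below the rest, and since the models share the same match, reads may be split between them. Members described as O-glycosyl hydrolases of family 17 had 6 of 22 called lower (27.3%), the highest share of any exact description held by at least 10 tested models.

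Other shared descriptions with a high share of lower calls were thaumatin-like pathogenesis-related proteins and subtilases, each with 2 of 10, the GDSL description with 6 of 35, glycosyl hydrolases with 2 of 15 and HXXXD-type acyl-transferases with 3 of 29. Over all genes the shares were 1.83% lower and 0.408% higher. Shares of higher calls rested on 1 model each: Rhodanese proteins (1 of 10), pfkB-like kinases (1 of 12), FAD/NAD(P)-binding oxidoreductases and RmlC-like cupins (1 of 14 each), plant invertase and pectin methylesterase inhibitors (1 of 17) and adenine nucleotide alpha hydrolases (1 of 19).

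Early nodulin-like protein 8 (AA53G01281), a surface protein related to plastocyanins, had TUR dark values of 88.1, 85.8 and 72.9 CPM, TUR light values of 30.2, 26.8 and 24.3, CYP dark values of 68.4, 64.7 and 64.2 and CYP light values of 4.06, 4.54 and 3.95. Light lowered it in both accessions and took it furthest in CYP, with a difference of -2.38 ± 0.17 (SE; adjusted p = 4.48e-07). An extensin-like protein (AA65G00256) showed the same order at a higher count, with TUR dark values of 2270, 2188 and 1984 CPM, TUR light values of 689, 699 and 611, CYP dark values of 874, 829 and 1081 and CYP light values of 106, 117 and 107 and a difference of -1.39 ± 0.15 (SE; adjusted p = 7.24e-05). Of 21 arabinogalactan and fasciclin-like proteins, 3 had a difference called lower (14.3%, against 1.83% over all genes) and 0 higher. The fasciclin-like AA61G00462 led them at -1.74 ± 0.27 (SE; adjusted p = 0.00158).

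Pectin enzymes were divided. Of 45 pectin lyases and polygalacturonases 3 had a difference called lower (6.67%, against 1.83% over all genes). That count was 1 without any of TUR dark replicate 3, TUR light replicates 1 and 2, CYP dark replicate 2 and CYP light replicates 1 and 3, each left out alone. Of 42 pectin methylesterases and their inhibitors 2 were called lower (4.76%) and 1 higher (2.38%, against 0.408% over all genes). A pectate lyase (AA134G00041) and an inhibitor-type protein (AA8G00179) fell in CYP alone, with differences of -1.46 ± 0.22 (SE; adjusted p = 0.000969) and -1.48 ± 0.21 (SE; adjusted p = 0.000702). Another inhibitor-type protein (AA41G00019) fell in TUR alone, with TUR dark values of 18.1, 15.4 and 18.1 CPM, TUR light values of 8.92, 6.49 and 7.03, CYP dark values of 5.39, 5.86 and 8.51 and CYP light values of 5.57, 6.68 and 6.07. Its CYP libraries overlapped, the difference was 1.10 ± 0.25 (SE; adjusted p = 0.0257), and the call was lost without 7 of the 12 libraries in turn. Xyloglucan endotransglucosylases (10 tested), tubulins (20) and cellulose synthases (27) together had 0 called differences by edgeR or DESeq2, and 10 at an unadjusted p under 0.05.

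**Figure D4:**
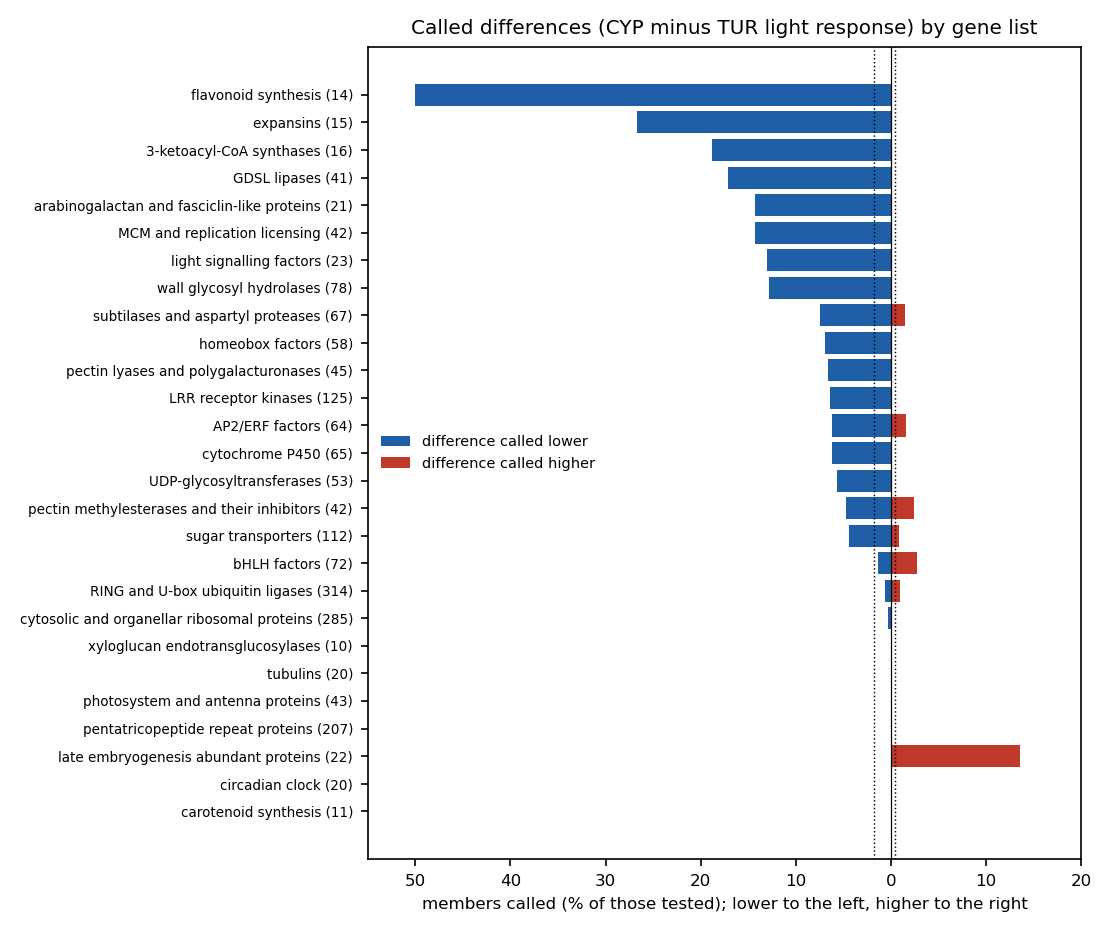
Share of tested members with a called difference in each gene list, lower to the left in blue and higher to the right in red, with the number tested in brackets and dotted lines at the shares over all genes (1.83% lower, 0.408% higher). Shown are the lists with at least 10 tested members and 3 called, and 7 lists with few or no calls.

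Lower calls also fell on proteases, a transporter and receptors. Subtilases and aspartyl proteases had 5 of 67 members called lower (7.46%, against 1.83% over all genes) and 1 higher (1.49%, against 0.408%). The lower count was 2 without CYP light replicate 1 and 3 without TUR light replicate 2. The aspartyl protease AA40G00210 had TUR dark values of 35.1, 37.8 and 34.7 CPM, TUR light values of 19.6, 18.3 and 17.5, CYP dark values of 29.4, 26.6 and 27.1 and CYP light values of 4.298, 4.97 and 4.02. It fell in both accessions, more in CYP with a difference of -1.69 ± 0.16 (SE; adjusted p = 2.45e-05). A subtilase (AA26G00148) fell in CYP alone with a difference of -1.34 ± 0.17 (SE; adjusted p = 0.000286), and so did the amino acid carrier lysine histidine transporter 1 (AA87G00090) with a difference of -1.68 ± 0.27 (SE; adjusted p = 0.00169). Leucine-rich repeat receptor kinases, which sense peptides and other signals at the cell surface, had 8 of 125 called lower (6.4%, against 1.83% over all genes). All 8 fell in CYP alone, as 0.893% of all genes did. Higher calls numbered 0, and the median difference was -0.21. The count of lower calls was 0 without CYP light replicate 1 and 1 without TUR light replicate 2, so it rested on single libraries. One of the 8 kinases, AA65G00143, had a difference of -1.04 ± 0.20 (SE; adjusted p = 0.00923), lost only without CYP light replicate 1 (adjusted p = 0.0552).

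Some genes of DNA replication fell further in CYP. Of 42 licensing and replication proteins 6 had a difference called lower (14.3%, against 1.83% over all genes) and 0 higher, with 3 falling in CYP alone. In CYP 16 of the 42 fell and in TUR 5 fell, while over all genes 14.3% fell in CYP and 9.22% in TUR. MCM2 (AA44G00552), a subunit of the helicase that opens DNA at origins, had TUR dark values of 136, 144 and 128 CPM, TUR light values of 111, 122 and 109, CYP dark values of 92.7, 95.1 and 109.9 and CYP light values of 50.9, 41.7 and 49.2. CYP light libraries were the lowest of all and the TUR libraries did not overlap either, although the TUR response was not called, and the difference was -0.81 ± 0.14 (SE; adjusted p = 0.00384). The subunit matched by AA32G00239 and the models AA123G00008 and AA123G00009, which match the same subunit, had differences of -0.75, -1.02 and -0.70, and these calls were lost without 1, 9 and 9 of the 12 libraries. The list's count was 2 without CYP light replicate 1 and 3 without TUR light replicate 2. Of 49 cyclins, their kinases and inhibitors 2 had a difference called lower (4.08%, against 1.83% over all genes), and both were described as inhibitors of cyclin-dependent kinases (AA12G00166 and AA46G00219). With any 1 library left out that count was 0 or 1. Of 31 histones 1 was called higher (3.23%, against 0.408% over all genes) and 0 lower, and the median difference was 0.08. The call was histone H2A 6 (AA32G00842), which fell in TUR alone with a difference of 0.71, lost without 6 of the 12 libraries in turn. In TUR 13 of the 31 fell and in CYP 9 fell, beside falls of 9.22% and 14.3% over all genes.

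Several regulators of transcription fell in CYP alone. A bZIP factor (AA61G00245, match AT3G58120) had TUR dark values of 31.6, 26.03 and 27.5 CPM, TUR light values of 27.9, 33.7 and 25.3, CYP dark values of 6.59, 5.62 and 7.14 and CYP light values of 1.35, 1.88 and 1.02. It fell in CYP while its TUR libraries overlapped, and it was lower in CYP than in TUR already in darkness, with a difference of -2.21 ± 0.27 (SE; adjusted p = 0.000187). The bHLH factor matched to SPEECHLESS (AA77G00033), which starts the stomatal lineage in Arabidopsis, had a difference of -1.16 ± 0.25 (SE; adjusted p = 0.0209) that was lost without 7 of the 12 libraries. A small protein described as protein binding (AA21G00283), a transporter of the EamA type (AA1G00038) and zinc finger protein 4 (AA53G01128) had differences of -2.42, -2.30 and -1.95, and the first and last calls were lost without 4 and 8 of the 12 libraries. Of 58 homeobox factors 4 had a difference called lower (6.90%, against 1.83% over all genes). That count was 0 without CYP light replicate 1 and 1 without TUR light replicate 2.

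Gibberellin genes did not move together, with 2 lower (28.6%) and 1 higher difference (14.3%) among 7 tested synthesis genes. Over all genes the shares were 1.83% and 0.408%. GA3OX1 (AA37G00176), an enzyme for the last step to active gibberellin, had TUR dark values of 36.6, 28.9 and 31.4 CPM, TUR light values of 43.3, 42.1 and 41.8, CYP dark values of 10.3, 9.81 and 12.6 and CYP light values of 6.69, 8.305 and 7.17. It rose in TUR and fell in CYP without overlap in either, with a difference of -0.94 ± 0.18 (SE; adjusted p = 0.00912), a call lost only without CYP light replicate 1 (adjusted p = 0.0526). GA3OX2 (AA31G00895), which catalyses the same step, had TUR dark values of 7.15, 4.34 and 6.28 CPM, TUR light values of 10.2, 8.36 and 10.1, CYP dark values of 5.79, 6.22 and 6.23 and CYP light values of 22.4, 24.1 and 17.3. It rose in both accessions and more in CYP with a difference of 1.12 ± 0.26 (SE; adjusted p = 0.0285), with the call lost without 7 of the 12 libraries. GA20OX1 (AA1024G00001), of the step before, fell in CYP alone with a difference of -0.68 ± 0.17 (SE; adjusted p = 0.0423), a call lost without 11 of the 12.

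The inactivating enzyme GA2OX2 was matched by a pair of models. AA54G00411 had TUR dark values of 1.54, 3.300 and 1.86 CPM, TUR light values of 2.85, 1.497 and 2.72, CYP dark values of 38.4, 32.5 and 37.7 and CYP light values of 12.3, 10.8 and 8.702. It was at a low level in TUR in both treatments, was high in CYP dark and fell in CYP light, with a difference of -1.95 ± 0.34 (SE; adjusted p = 0.00418) kept without any 1 library. AA18G00108 had TUR dark values of 0.308, 0.283 and 0.155 CPM, TUR light values of 5.92, 5.49 and 4.38, CYP dark values of 0.399, 0 and 0.152 and CYP light values of 14.5, 11.7 and 16.4. It rose in both accessions, and its difference of 1.73 was not called (adjusted p = 0.382). GASA4 (AA40G00565), a gibberellin-responsive peptide, fell in both accessions with a difference of -0.86 (adjusted p = 0.0582 by edgeR and 0.0256 by DESeq2), and the DELLA repressor RGL2 (AA10G00264) had one of -0.05 (adjusted p = 0.911).

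Some genes that mark the desiccation-tolerant seed rose in CYP alone or rose more in CYP. Of 22 tested LEA genes 3 had a difference called higher (13.6%, against 0.408% over all genes) and 0 lower, with a median difference of 0.52. By DESeq2 the higher calls numbered 5, and at an unadjusted p under 0.05 there were 9. In CYP 8 of the 22 rose and 0 fell, while in TUR 1 rose and 2 fell. Over all genes 10.6% rose and 14.3% fell in CYP, and 9.17% rose and 9.22% fell in TUR. LEA4-5 (AA83G00024) had TUR dark values of 702, 663 and 701 CPM, TUR light values of 830.1, 562 and 822, CYP dark values of 936, 865 and 879 and CYP light values of 1701, 1925 and 1785. Its CYP light libraries lay above all others and its TUR libraries overlapped, with a difference of 0.91 ± 0.17 (SE; adjusted p = 0.0068). AA21G00047 and AA31G00131 rose in CYP alone as well, with differences of 0.88 ± 0.19 (SE; adjusted p = 0.0171) and 0.73 ± 0.14 (SE; adjusted p = 0.0073), the first lost only without CYP light replicate 2 (adjusted p = 0.0573). In TUR light replicate 2 LEA4-5 was lowest and FDH highest among the TUR light libraries, and without this library the list still had 3 higher calls. Without CYP light replicate 2 it had 2.

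Of 6 abscisic acid and desiccation response genes, 3 had a difference called higher (50%, against 0.408% over all genes) and 0 lower. All 6 rose in CYP while 3 rose in TUR. At an unadjusted p under 0.05, 5 of the 6 were higher, and the called count was 2 to 4 with any 1 library left out. RD29B (AA55G00020), a classic abscisic acid target, had TUR dark values of 281, 264 and 306 CPM, TUR light values of 369, 305 and 379.5, CYP dark values of 261, 260.4 and 298 and CYP light values of 632, 650.4 and 638. The accessions did not separate in darkness, light raised the gene in both although the TUR libraries overlapped, and the CYP rise was larger by 0.92 ± 0.14 (SE; adjusted p = 0.00135). ECP63 (AA60G00129) rose more in CYP with a difference of 0.91 ± 0.18 (SE; adjusted p = 0.00969), with TUR the higher accession in darkness at 639.8 ± 56.9 against 296 ± 29.1 CPM (SD, n = 3). EM1 (AA215G00006) rose in CYP alone with a difference of 0.74 ± 0.18 (SE; adjusted p = 0.0348), a call lost without 7 of the 12 libraries. Of 7 oil body proteins 4 rose in CYP and 1 in TUR, but 0 had a called difference by edgeR, against 1 by DESeq2 and 1 at an unadjusted p under 0.05. The 5 storage protein genes tested had 0 in each of these counts.

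The abscisic acid pathway above these targets gave few calls. The receptor PYL4 (AA805G00002) had TUR dark values of 99.9, 106 and 104 CPM, TUR light values of 57.7, 73.6 and 53.6, CYP dark values of 28.7, 35.7 and 38.5 and CYP light values of 8.199, 10.02 and 7.46. It fell in both accessions and more in CYP with a difference of -1.24 ± 0.19 (SE; adjusted p = 0.00145). The receptor PYL11 (AA6G00016) rose from a low level in both, with log2 responses of 6.42 in TUR and 4.84 in CYP and a difference of -1.58 ± 0.31 (SE; adjusted p = 0.0091), lost only without CYP dark replicate 1 (adjusted p = 0.0695). By edgeR these were the 2 calls among 28 tested receptors and signalling proteins (7.14%, with 1.83% called lower over all genes), against 3 lower calls by DESeq2. The 6 synthesis genes had 0 calls by edgeR and 1 higher by DESeq2, and the 3 hydroxylase models had 0 by either tool, against 2 in each list at an unadjusted p under 0.05.

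For some regulators of abscisic acid the call depended on the tool. NCED6 (AA78G00012), an abscisic acid synthesis enzyme of the endosperm, had TUR dark values of 12.8, 12.6 and 10.5 CPM, TUR light values of 4.35, 1.75 and 2.12, CYP dark values of 15.3, 16.9 and 25.99 and CYP light values of 10.1, 10.6 and 11.6. It fell in both accessions, and the difference of 1.24 had an adjusted p of 0.0655 by edgeR and 0.0165 by DESeq2. ABI4 (AA29G00257), an abscisic acid response factor, fell in CYP (-0.81) and was not called in TUR (-0.07), with a difference of -0.75 (adjusted p = 0.0607 by edgeR and 0.0341 by DESeq2). The differences of ABI3 (AA109G00007) and ABI5 (AA60G00170), its partners in seed maturation, were 0.04 and -0.06 (adjusted p = 0.927 and 0.935).

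Of 10 tested dormancy and germination regulators 1 had a difference called higher and 1 lower by edgeR (10% each). Over all genes the shares were 0.408% and 1.83%. By DESeq2 the counts were 1 higher and 3 lower. DOG1 (AA6G00020), a dormancy gene, rose in both accessions with a difference of 1.19 (adjusted p = 0.354), and MFT (AA39G00114), another regulator of germination, had one of 0.48 (adjusted p = 0.504). The DOG1 relative DOGL4 (AA57G00147) rose in CYP alone with a difference of 0.96 ± 0.23 (SE; adjusted p = 0.0368), lost without 7 of the 12 libraries. BME3 (AA216G00002), a GATA factor that promotes germination in Arabidopsis, had TUR dark values of 51.1, 49.1 and 57.1 CPM, TUR light values of 60.3, 69.3 and 53.05, CYP dark values of 34.05, 27.5 and 32.8 and CYP light values of 20.1, 19.6 and 19.2. It fell in CYP alone with a difference of -0.89 ± 0.16 (SE; adjusted p = 0.00491), and was called without any 1 library.

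The remaining abscisic acid enzymes were as follows. NCED9 (AA31G00716) had a difference of -0.40 (adjusted p = 0.687). The hydroxylases CYP707A2 (AA32G00787) and CYP707A3 (AA57G00196 and AA6G00060), which break down abscisic acid, had differences of 0.38, 0.30 and -0.43, with adjusted p-values of 0.323, 0.746 and 0.143. GA20OX2 (AA55G00064) had a difference of 0.86 (adjusted p = 0.407). Of GA20OX3 the model was not tested, and for GA2OX3, NCED5, CYP707A1 and GASA6 no model carries the match in the table.

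Further genes rose in CYP alone. HMT3 (AA17G00074), a homocysteine methyltransferase that forms methionine, had TUR dark values of 18.8, 18.9 and 20.9 CPM, TUR light values of 22.3, 13.6 and 17.3, CYP dark values of 36.8, 33.02 and 27.8 and CYP light values of 70.9, 67.6 and 68.7. CYP light libraries were the highest of all, the TUR libraries overlapped, and the difference was 1.20 ± 0.19 (SE; adjusted p = 0.00194). A RING-type protein (AA19G00411) and a P-loop ATPase (AA18G00109) rose in CYP alone with differences of 1.11 ± 0.20 (SE; adjusted p = 0.00428) and 1.10 ± 0.20 (SE; adjusted p = 0.00491), and all 3 calls were kept without any 1 library. A cupin protein of the storage-protein fold (AA30G00180), aldehyde dehydrogenase 11A3 (AA22G00103) and a vesicle-fusion protein (AA61G00251) had differences of 1.05, 1.15 and 1.27, lost without 3, 4 and 8 of the 12 libraries. An AP2/ERF factor (AA31G00404, match AT1G75490) rose in both accessions and more in CYP, with TUR dark values of 29.99, 17.1 and 30.01 CPM, TUR light values of 61.8, 25.6 and 42.9, CYP dark values of 11.1, 12.7 and 11.2 and CYP light values of 77.3, 78.6 and 66.3. The TUR libraries overlapped and the CYP libraries did not, and the difference was 1.90 ± 0.34 (SE; adjusted p = 0.00468).

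Flavonoid synthesis makes ultraviolet-absorbing and red pigments, and of its 14 tested genes 13 rose in CYP light and 12 in TUR light. Of the 14 genes 7 had a difference called lower (50% against 1.83% over all genes) and 0 higher, and all 7 rose in both accessions. The median log2 response of the list was 4.32 in TUR and 3.54 in CYP. The first enzymes of the path, chalcone synthase CHS (AA32G01209) and chalcone isomerase CHI (AA70G00027), had differences of -0.69 ± 0.16 (SE; adjusted p = 0.0277) and -0.55 ± 0.14 (SE; adjusted p = 0.0463).

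F3H (AA13G00009), the next enzyme, had TUR dark values of 51.8, 43.9 and 33.8 CPM, TUR light values of 484, 538 and 586, CYP dark values of 1440, 1209 and 1933 and CYP light values of 4326, 4376 and 4854. All groups were apart, CYP exceeded TUR in both treatments, and the TUR response was the larger, with a difference of -2.07 ± 0.22 (SE; adjusted p = 5.21e-05). Dihydroflavonol reductase DFR (AA3G00224), the first enzyme committed to anthocyanin, had TUR dark values of 9.84, 7.54 and 8.69 CPM, TUR light values of 490.1, 569 and 414, CYP dark values of 25.4, 20.6 and 20.98 and CYP light values of 660, 603 and 612. Light raised it from a lower start in TUR to a level nearer to CYP, and the difference was -1.01 ± 0.19 (SE; adjusted p = 0.00594). LDOX (AA57G00487), of the following step, had a difference of -0.84 ± 0.16 (SE; adjusted p = 0.0068).

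The anthocyanin glycosyltransferase UGT79B1 (AA11G00065) had TUR dark values of 3.46, 3.395 and 3.18 CPM, TUR light values of 192, 194 and 176, CYP dark values of 21.6, 14.2 and 19.5 and CYP light values of 349.6, 287 and 335. The glutathione transferase TT19 (AA40G00386), which helps carry anthocyanin to the vacuole, had TUR dark values of 3.69, 3.395 and 3.49 CPM, TUR light values of 163, 134 and 141, CYP dark values of 23.5, 17.8 and 15.7 and CYP light values of 274, 291 and 285. Both were higher in CYP than in TUR in either treatment, and their differences were -1.67 ± 0.20 (SE; adjusted p = 0.000175) and -1.49 ± 0.20 (SE; adjusted p = 0.000449). Each of the 7 genes was higher in CYP than in TUR in darkness, by log2 gaps of 0.75 (CHI) to 5.14 (F3H), and in light the gaps were 0.19 to 3.08, CHI's being uncalled. The gaps and the difference share the same libraries. The bHLH regulator EGL3 (AA21G00569) went the other way, rising more in CYP with a difference of 1.12 ± 0.27 (SE; adjusted p = 0.0341), a call lost without 9 of the 12 libraries. It was the 1 call among 7 tested regulators of the pathway (14.3% higher, against 0.408% over all genes). The count of called flavonoid synthesis genes was 5 to 7 with any 1 library left out.

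Of 23 tested light-signalling genes 3 had a difference called lower (13%, against 1.83% over all genes) and 0 higher. The B-box factor BBX24 (AA114G00006), which restrains light signalling in Arabidopsis seedlings, had TUR dark values of 19.6, 19.1 and 23.6 CPM, TUR light values of 211, 245 and 226, CYP dark values of 53.3, 51.8 and 60.5 and CYP light values of 275, 312 and 276. It rose in both accessions, more in TUR with a difference of -1.07 ± 0.15 (SE; adjusted p = 0.000676). PAR2 (AA61G00301), a small growth repressor of the shade response, had TUR dark values of 62.1, 59.4 and 67.5 CPM, TUR light values of 24.7, 28.4 and 29.4, CYP dark values of 32.4, 25.8 and 25.1 and CYP light values of 6.13, 5.48 and 4.24. It fell in both and more in CYP with a difference of -1.21 ± 0.19 (SE; adjusted p = 0.00165), and its relative PAR1 (AA21G00074) fell more in CYP with a difference of -1.07 ± 0.27 (SE; adjusted p = 0.0436), lost without 10 of the 12 libraries. Phytochrome A (AA65G00005), the far-red photoreceptor, fell in both accessions with a difference of -0.57 ± 0.14 (SE; adjusted p = 0.0377), lost without 11 of the 12.

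Phytochrome B (AA26G00394), HY5 (AA44G00380) and the germination repressors PIF1 (AA102G00037 and AA33G00286), SOM (AA7G00098) and SPT (AA30G00231) had no called difference by edgeR. Their differences were -0.42, -0.38, -0.09, -0.14, -0.01 and -1.14, the lowest adjusted p being 0.0712 for SPT, which DESeq2 called (adjusted p = 0.0303). Of 20 clock genes 11 rose in CYP and 10 in TUR, and 0 had a called difference. The clock genes, 43 photosystem and antenna proteins, 11 carotenoid synthesis genes, 207 pentatricopeptide repeat proteins and 36 proteasome subunits together had 0 calls by edgeR or DESeq2 and 17 at an unadjusted p under 0.05. Ribosomal proteins had 1 call, a lower one, among 285 (0.351%, below the 1.83% over all genes).

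Among genes that rose in TUR alone, IAA17 (AA32G00414, an Aux/IAA repressor of auxin responses) had 37 reads over the TUR dark libraries and 321 over TUR light, against 9 reads in CYP dark and 3 in CYP light. It rose in TUR, with 0.846, 1.603 and 0.698 CPM in TUR dark and 8.098, 10.8 and 9.52 in TUR light, and the CYP ratio of light to dark was 0.224 (95% interval 0.0389 to 0.896, counting error only). The difference was called (adjusted p = 0.00286) and was kept without any 1 library. A flavin-binding monooxygenase (AA65G00277) had TUR dark values of 0.9995, 2.169 and 1.78 CPM, TUR light values of 10.3, 6.86 and 6.35, CYP dark values of 11.98, 10.2 and 12.8 and CYP light values of 14.3, 12.5 and 13.8. Light brought it in TUR towards the level that CYP held in both treatments, with a difference of -2.05 ± 0.32 (SE; adjusted p = 0.00135).

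The desiccation-related BURP protein AA12G00097, the sugar transporter AA26G00193 and the pectin lyase AA1G00004 rose in TUR alone with differences of -3.89, -2.23 and -1.61. Their calls were lost without 5, 7 and 10 of the 12 libraries. Heat shock protein 70 (AA93G00109) rose in both accessions and more in TUR, with TUR dark values of 156, 159 and 132 CPM, TUR light values of 502, 542 and 639, CYP dark values of 79.2, 71.2 and 64.00 and CYP light values of 135, 146 and 130.2 and a difference of -0.98 ± 0.16 (SE; adjusted p = 0.00191).

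Among genes that fell in TUR alone, the senescence-associated Rhodanese protein AA30G00100 had TUR dark values of 31.7, 31.5 and 43.9 CPM, TUR light values of 22.9, 23.1 and 23.7, CYP dark values of 53.8, 53.7 and 43.2 and CYP light values of 64.2, 63.4 and 52.2. Its CYP libraries overlapped between treatments, and the difference of 0.87 ± 0.19 (SE; adjusted p = 0.0178) was lost without 2 of the 12 libraries. A major facilitator transporter (AA44G00281), a DNA repair glycosylase (AA148G00005), a bHLH factor (AA31G00060) and the sugar transporter SAG29 (AA44G00525) had differences of 1.02, 0.97, 0.83 and 0.74, each lost without 8 or 10 of the 12. LACS7 (AA40G00101), which activates fatty acids for oil breakdown, fell in TUR alone with a difference of 0.56 ± 0.13 (SE; adjusted p = 0.0271), lost without 5. It was the 1 call, a higher one, among 13 glyoxylate cycle and oil breakdown genes (7.69%, against 0.408% over all genes).

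Opposite responses were called for 16 genes. Besides FDH, CER6 and GA3OX1, a phosphate-responsive wall protein (AA54G00113) had TUR dark values of 49.4, 45.4 and 56.2 CPM, TUR light values of 79.9, 56.4 and 62.95, CYP dark values of 36.1, 37.6 and 34.96 and CYP light values of 17.3, 16.4 and 18.1. It rose in TUR and fell in CYP without overlap, with a difference of -1.47 ± 0.17 (SE; adjusted p = 0.000123). The ankyrin-repeat regulator of organ boundaries AA10G00485 (match AT2G41370) and the P450 enzyme of family 78 AA44G00255 did the same with differences of -1.16 ± 0.20 (SE; adjusted p = 0.00339) and -1.07 ± 0.17 (SE; adjusted p = 0.00205). In the reverse direction, a DnaJ-domain chaperone (AA31G00839) had TUR dark values of 24.8, 28.4 and 30.1 CPM, TUR light values of 22.3, 17.96 and 16.02, CYP dark values of 22.9, 17.6 and 15.2 and CYP light values of 27.5, 25.5 and 23.99, falling in TUR and rising in CYP with a difference of 1.01 ± 0.21 (SE; adjusted p = 0.0132). A NAC factor (AA32G00197) also rose in CYP and fell in TUR with a difference of 0.95 ± 0.18 (SE; adjusted p = 0.00633).

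The differences were set against the gaps between accessions, which use the same libraries, so the counts describe the classes and add no support. Gaps were common: of all 15671 genes tested, 8265 had a called gap in light and 6967 in darkness. CYP and TUR differed in light but not in darkness, by called gaps, for 101 of the 351 genes, in darkness but not in light for 39, and in both for 211. Of the 140 genes that fell in CYP alone, 121 were lower in CYP than in TUR in light, and 72 were lower in darkness. Of the 29 genes that rose more in TUR, 22 were higher in CYP in darkness and 12 in light. Of the 26 genes that rose in CYP alone, 23 were higher in CYP in light and 8 in darkness.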

How the data were processed

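Poly(A) RNA of 12 seed libraries was sequenced. The deposited table gives raw counts per gene model, the authors' RPKM, model lengths and matches to TAIR10 genes, per the file headers. Per the submitters' processing notes, bcl2fastq 2.17.1, Trimmomatic, Bowtie2 2.2.3 and HTSeq 0.6.1 were used. The genome build is listed as TAIR10, although the counts are given per A. arabicum gene model. No source used here gives a release of the A. arabicum genome or the strand setting. The deposited RPKM equalled counts over length and library total in CYP but were about 2-fold higher in TUR (median ratio 1.97 to 2.14), so they were not used.

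Counts were fitted with edgeR 4.0.16 (R 4.3.3) in a group-means model over all 12 libraries, with TMM scaling, a filter of at least 1 CPM in at least 3 libraries and quasi-likelihood tests with Benjamini-Hochberg adjustment over 15671 genes at 0.05. The scripts were tested on simulated data. Alternatives were DESeq2 1.42.0, limma 3.58.1 (voom, and log2 of recomputed RPKM plus a pseudocount of 1), RLE scaling, other filters, a replicate block, and each library left out.

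The 84 gene lists (64 by description, 20 by locus) and the panel of seed regulators were chosen with earlier results of these data known. Genes are named for the 6 largest differences in each class held by one accession or opposite in direction (described function, at least 5 CPM), for up to 4 called members of each described list, for the panel, and for exact descriptions shared by at least 10 tested models. Genes of the cutin and wax list outside these were chosen after their values were seen, as were CHS, CHI and LDOX, the uncalled epidermal markers and the second CER6 model. Cell-type shares and sequences were not analysed here.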

Additional observations from a re-analysis of the deposited data

Results flagged for a closer look

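The light response differed between accessions, by a test of the difference itself, for 351 genes. Among the named genes, 9 stood out because light moved them in opposite called directions in TUR and CYP. With a rise in TUR and a fall in CYP, the log2 differences were -2.87 for CER6 (AA39G00688), -1.62 for FDH (AA32G01045), -1.47 for AA54G00113, -1.16 for AA10G00485, -1.07 for AA44G00255, -0.94 for GA3OX1 (AA37G00176) and -0.61 for a ribosomal L1p/L10e protein (AA61G00286). With a fall in TUR and a rise in CYP, they were 1.01 for AA31G00839 and 0.95 for AA32G00197.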

How the results depend on the processing

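Called differences of genes named by rule kept their direction under every alternative tried. Genes named after their values were seen (GPAT4, DCF, LACS2, CER1, CER3, CHS, CHI and LDOX) were not traced through them one by one. The count of higher differences was 124 by DESeq2, and that of lower differences was 189 by limma on log2(RPKM + 1). A fold of at least 2 left 18 higher and 156 lower. Genes that fell in CYP alone numbered 84 by limma on log2(RPKM + 1). Those that rose in CYP alone numbered 48 by DESeq2 and 41 with no filter on low counts, and those that fell in TUR alone 48 by DESeq2. RLE scaling, limma voom, a mean of at least 5 CPM and the stricter class rule moved no count by over 1.5 times. Of the reported 351 calls, DESeq2 recovered 100%, no filter 97.2%, RLE scaling 90.3%, a mean of at least 5 CPM 88.3%, limma voom 81.8%, the replicate block 75.2% and limma on log2(RPKM + 1) 57.5%. With 1 library left out the share ran from 45.6% (CYP light replicate 1) to 93.7% (CYP dark replicate 3).

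With the replicate number as a block, 42 differences were higher and 228 lower, with 16 genes that rose in CYP alone and 11 that fell in TUR alone. The labels do not say whether the numbers pair the libraries. Deviations from the group mean correlated between -0.441 and 0.265 for same-numbered libraries and between -0.264 and 0.361 for differently numbered ones. With 3 libraries in each group these ranges do not settle it.

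With 1 library left out, the counts ran from 25 to 112 (higher), 129 to 340 (lower), 58 to 136 (fall in CYP alone), 13 to 47 (rise in CYP alone), 4 to 35 (fall in TUR alone), 9 to 44 (rise in TUR alone) and 8 to 22 (opposite). All of the highest counts came without CYP dark replicate 3. Depth limits low genes such as CER6 and IAA17, where 3 counts stand for up to 0.423 CPM.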

Other observations

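Some larger enzyme and regulator families overlap with the genes described above, and their counts by edgeR's quasi-likelihood test stand beside 1.83% lower and 0.408% higher over all genes. Cytochrome P450 enzymes, which oxidise hormones, lipids and defence compounds, had 4 of 65 called lower (6.15%) and 0 higher, against 5 and 2 by DESeq2. These 4 include CYP77A4 and AA44G00255, given above. The others were a member of family 83 (AA428G00003), matched to an enzyme of glucosinolate synthesis in Arabidopsis, which fell more in CYP with a difference of -1.20, and a member of family 87 (AA53G01238), which rose in TUR alone with a difference of -1.14, lost without 5 of the 12 libraries.

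UDP-glycosyltransferases, which attach sugars to small molecules, had 3 of 53 called lower (5.66%), UGT79B1 among them. In CYP 11 of the 53 rose and 11 fell, and in TUR 15 rose and 3 fell. AP2/ERF factors had 4 of 64 called lower (6.25%) and 1 higher (1.56%), the latter being AA31G00404. A list of sugar transporters drawn by description also takes in major facilitator and nucleotide-sugar transporters, whose substrates need not be free sugars. It had 5 of 112 called lower (4.46%) and 1 higher (0.893%), AA26G00193 and AA44G00281 among them. The lower count ranged from 1 to 5 with any 1 library left out.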
